A study of Mus musculus with 12 samples.

Results

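The comparison set the 6 tumours with the most Col1a1 RNA against the 6 with the least, out of the 12 tumours of the study and whatever treatment they had received. Col1a1 encodes the main chain of type I collagen. Its level was its share of the total count of the tumour in CPM (counts-per-million), and the 12 tumours were ranked on it. The members of each side were chosen by this measured value alone. The upper 6 are called collagen-rich here and the lower 6 collagen-poor. Because the sides were drawn from measured values, the difference between the sides in Col1a1 and in the other collagen genes is given as a description with no test.

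The tumours grew from Sq-1979 cells, a mouse squamous carcinoma line, which were placed with Matrigel under the skin of the back of male C3H/HeN mice aged 6 weeks. The 4 groups of 3 tumours had received vehicle, a rat antibody to PD1 (an inhibitory receptor of T cells), SN-38 (the active metabolite of irinotecan, an inhibitor of topoisomerase I), or the antibody and SN-38 together, called the combination here. Gene expression was measured by poly(A) RNA-seq of whole tumour tissue. The sources used here state neither doses nor treatment times. Whether every tumour grew in its own mouse is not stated either, so a p-value reflects the variation among these 12 samples, some of which may be technical. All groups carried the same cells in the same strain and sex, so nothing here speaks of other tumour lines.

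As background, collagen in a tumour is made mostly by fibroblasts. The chains are hydroxylated and folded in the endoplasmic reticulum, carried out in large vesicles, trimmed by procollagen proteases, assembled into fibrils with small proteoglycans, and cross-linked by lysyl oxidases. Transforming growth factor beta (TGF-β) is the best known inducer of this programme, and matrix metalloproteinases, cathepsin K and endocytic receptors take the fibrils apart. In bulk RNA, fewer cells of a type and less RNA per cell cannot be told apart, which holds for every gene group below.

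Total counts ran from 21088288 to 28512141 per tumour, and the shares of counts from mitochondrial genes were between 1.17% and 1.93%. Values per gene below are CPM on library sizes scaled by the trimmed mean of M-values (TMM), whose factors lay between 0.97 and 1.026. The labelled squamous origin was checked on basal keratins, and Krt5 ran from 4408 to 8107 CPM and Krt14 from 1634 to 5584 CPM. SN-38 tumour 2 stood apart. It held 25190 CPM of Col1a1, while the next tumour held 12985 CPM, and all collagen genes together took 7.72% of its counts against 1.05% to 4.12% in the other 11 tumours.

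In the order of the ranking, the collagen-rich side consisted of SN-38 tumour 2 (25190 CPM), anti-PD1 tumour 3 (12985 CPM), vehicle tumour 1 (12606 CPM), vehicle tumour 3 (12205 CPM), anti-PD1 tumour 2 (11235 CPM) and vehicle tumour 2 (9681 CPM). The collagen-poor side held combination tumour 3 (7576 CPM), combination tumour 1 (6442 CPM), SN-38 tumour 3 (5296 CPM), SN-38 tumour 1 (3473 CPM), combination tumour 2 (2544 CPM) and anti-PD1 tumour 1 (2428 CPM). The members next to the division were thus vehicle tumour 2 at 9681 CPM and combination tumour 3 at 7576 CPM. Ranking on all collagen genes together, or on Col3a1, gave the same 6 and 6.

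**Figure D1:**
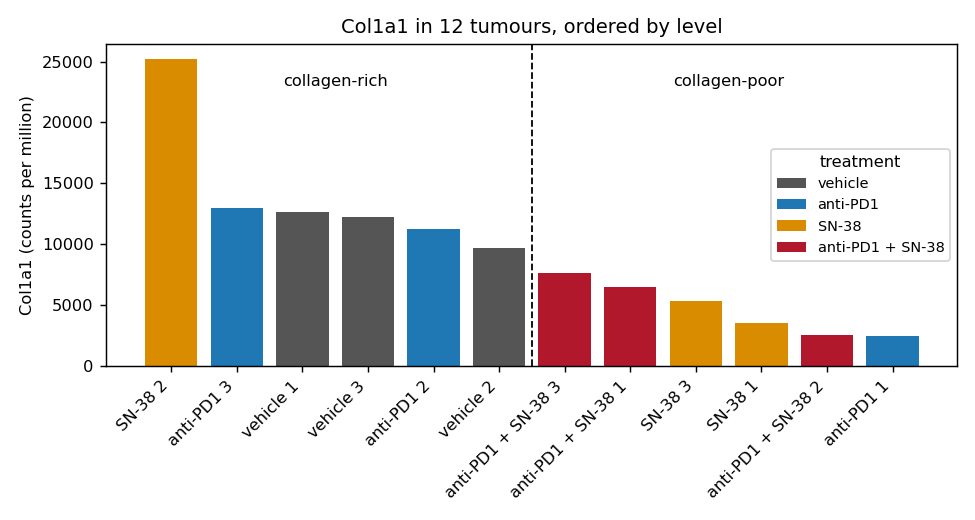
Col1a1 level in each of the 12 tumours in CPM, ordered from the highest to the lowest and coloured by treatment. The dashed line divides the 6 collagen-rich from the 6 collagen-poor tumours. All 3 vehicle tumours lie to its left and all 3 combination tumours to its right, and SN-38 tumour 2 at 25190 CPM lies far above the rest.

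The sides were unevenly spread over the treatments. All 3 vehicle tumours were collagen-rich and all 3 combination tumours collagen-poor, while 2 of 3 anti-PD1 tumours and 1 of 3 SN-38 tumours were collagen-rich. Col1a1 averaged 11498 ± 1586 CPM (SD, n = 3) with vehicle, 8883 ± 5658 with the antibody, 11320 ± 12046 with SN-38 and 5521 ± 2640 with the combination. The SD of the SN-38 group was larger than all 6 differences between group means and that of the antibody group larger than 4 of them, but smaller than the 5977 CPM between vehicle and combination and the 5799 CPM between SN-38 and combination. The treatment labels played no part in the division of the tumours, so the level by treatment was tested. Across antibody status, tumours with SN-38 held 8420 ± 8421 CPM (SD, n = 6) and those without it 10190 ± 3983, a difference that did not pass an exact two-sided permutation test within strata (p = 0.69, where the smallest possible p was 0.005). Tumours with the antibody held 7202 ± 4357 CPM (SD, n = 6) and those without it 11409 ± 7685 (p = 0.385 by the same exact permutation test, and 0.69 for each of the 2 differences after Benjamini-Hochberg adjustment). Leaving out SN-38 tumour 1 turned the SN-38 difference from -1770 to 192 CPM, and leaving out SN-38 tumour 2 moved it to -5237 CPM.

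This layout bears on every value below. A linear model with treatment group and side was fitted to all 16833 genes tested with edgeR's quasi-likelihood test, so the log2 difference between the sides is taken within treatments. It then comes from 6 tumours: SN-38 tumour 2 against SN-38 tumours 1 and 3, and anti-PD1 tumours 2 and 3 against anti-PD1 tumour 1. The vehicle and combination tumours add to the estimate of the spread only, and in them side and treatment cannot be told apart. An adjusted p (Benjamini-Hochberg over all genes tested, threshold 0.05) says how closely a gene followed the division by Col1a1 in these libraries, since the division was made from the same libraries.

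Of the 39 collagen genes tested, 29 had a positive log2 difference (collagen-rich minus collagen-poor) and the median was 1.25. The fibril-forming chains differed most among the abundant genes. Col3a1, the type III chain of reticular fibrils, ran from 5373 to 18195 CPM on the rich side and from 1258 to 4439 CPM on the poor side, with a log2 difference of 2.80 ± 0.40 (SE). Col1a2, the second chain of type I collagen, had a log2 difference of 2.35 ± 0.38, close to the 2.46 ± 0.37 of Col1a1 that defined the sides. The chains of type V and VI, which start fibrils and link them to cells, moved with them (log2 differences of 2.01 ± 0.37 for Col5a1 and 2.14 ± 0.36 for Col6a1). The chains of basement membrane, which form networks and not fibrils, were different. Col4a1 ran from 183 to 299 CPM on the rich side and from 223 to 551 CPM on the poor side, with a log2 difference of -0.03 ± 0.25, and Col4a2 had -0.12 ± 0.23. Col17a1, the hemidesmosomal collagen of squamous cells, had a log2 difference of -0.02 ± 0.18. Col18a1 lay at 0.06 ± 0.22, and Col4a5, another basement membrane chain, at -1.57 ± 0.45.

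Many of the genes that make collagen ready for export, and of the other matrix genes, are known to be expressed by fibroblasts, which also make type I collagen, while some, such as P4hb, are expressed by nearly all cells. Which cells gave these transcripts was not measured. Because of this kinship with the gene that set the sides, they are described with no p-value. They did enter the fit and the counts of genes called below. Of 29 collagen-modifying enzymes and chaperones, 26 had a positive log2 difference and 14 had sides that did not overlap, with a median of 0.68. Over all 16794 genes other than collagens the median was -0.01 and 47.6% were positive. Sides that did not overlap were found for 2.85% of them as higher and for 0.715% as lower on the rich side. Serpinh1, the collagen-specific chaperone HSP47, held 328, 308 and 379 CPM in the vehicle tumours, 108, 352 and 366 in anti-PD1 tumours 1 to 3, 194, 592 and 202 in SN-38 tumours 1 to 3, and 251, 177 and 197 in the combination tumours. Every collagen-rich tumour thus lay above every collagen-poor one, and within both treatments that held both sides the rich tumours were more than 1.5 log2 units higher (1.58 for SN-38 and 1.74 for the antibody). Creb3l1, a transcription factor of the endoplasmic reticulum that activates collagen genes, had a log2 difference of 2.14 ± 0.24, with 42.2 to 95.4 CPM on the rich side and 13.2 to 37.7 CPM on the poor side. Creb3l2, its close relative, differed little (0.38 ± 0.20).

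The modifying enzymes were not all alike. The prolyl 3-hydroxylases P3h1 and P3h3 had log2 differences of 1.66 ± 0.17 and 1.497 ± 0.145, the collagen chaperone Fkbp10 had 1.68 ± 0.20, and Pcolce, the enhancer of procollagen C-proteinase, had 1.47 ± 0.10. Adamts2 and Bmp1, which remove the N- and C-terminal propeptides, had 1.75 ± 0.40 and 1.30 ± 0.26. The cross-linking enzymes Loxl1 and Loxl2 had 1.74 ± 0.24 and 1.69 ± 0.40, with Loxl2 between 138 and 248 CPM on the rich side and between 28.2 and 98.5 CPM on the poor side. Other members showed small differences. P4hb, which is also the general protein disulfide isomerase, ran from 837 to 923 CPM on the rich side and from 783 to 982 CPM on the poor side (-0.08 ± 0.12), and the cyclophilin Ppib had 0.07 ± 0.07. P4ha1, a prolyl 4-hydroxylase chain, had 0.00 ± 0.12, and Plod2, a lysyl hydroxylase, had 0.11 ± 0.23. Loxl4, a further lysyl oxidase, had a log2 difference of -0.71 ± 0.28.

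Among 30 matrix glycoproteins and proteoglycans, 25 had a positive log2 difference, with a median of 1.23. Sparc, a collagen-binding protein of remodelling matrix, held 3105 to 6917 CPM in the rich tumours and 947 to 1952 CPM in the poor ones (2.04 ± 0.22). Cthrc1, a secreted protein of activated fibroblasts, held 44.6, 27.0 and 38.9 CPM with vehicle, 4.79, 46.0 and 29.9 CPM in anti-PD1 tumours 1 to 3, 8.32, 90.3 and 13.3 CPM in SN-38 tumours 1 to 3 and 11.1, 10.7 and 10.9 CPM with the combination. Its log2 difference was 3.03 ± 0.25, and the lowest rich tumour held more than the highest poor one. Of the 8 small leucine-rich proteoglycans in the list, a family that spaces fibrils, 6 had positive log2 differences (Aspn 2.98 ± 0.59, Dcn 2.36 ± 0.35, Lum 2.25 ± 0.46, Bgn 1.67 ± 0.24, Podn 1.07 ± 0.32 and Fmod 0.32 ± 0.24). The other two, Prelp (-0.62 ± 0.28) and Ogn (osteoglycin, -1.28 ± 0.95), had negative ones. Fn1, encoding fibronectin, differed less (1.06 ± 0.16), and 410 to 453 CPM in 5 of the 6 rich tumours overlapped 272 to 448 CPM in the poor ones, while SN-38 tumour 2 held 963 CPM. Tnc (tenascin C) lay at -0.03 ± 0.11, and Thbs1 (thrombospondin 1), at -0.32 ± 0.19, was lower in every rich than in every poor tumour. Eln (elastin) had a negative log2 difference with a wide error, -1.17 ± 0.66.

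Of 19 fibroblast identity genes, 16 had a positive log2 difference and the median was 0.81. Lrrc15, a surface protein of TGF-β-responsive tumour fibroblasts, held 671 to 1223 CPM in the rich tumours and 108 to 460 CPM in the poor ones (1.93 ± 0.45). Pdgfrb, a receptor for platelet-derived growth factor on fibroblasts and pericytes, held 135 to 245 CPM against 65.98 to 135 CPM (1.39 ± 0.25). Pdgfra had 0.81 ± 0.33 and Fap, a surface protease of activated fibroblasts, 0.52 ± 0.39. The members thus ran from -0.76 (Ltbp2) to 2.44 (Dpt), within the range of the matrix glycoproteins and proteoglycans (-1.28 to 3.03). The 15 contractile genes of myofibroblasts behaved otherwise: their median was 0.06 and 8 were positive. Acta2, encoding smooth muscle actin, held 129, 219 and 140 CPM with vehicle, 96.4, 114 and 126 in anti-PD1 tumours 1 to 3, 215, 83.8 and 118 in SN-38 tumours 1 to 3, and 221, 98.7 and 84.4 with the combination. The tumour with the most Col1a1, SN-38 tumour 2, thus had the lowest Acta2 of all 12, and the sides overlapped throughout (-0.34 ± 0.48). Tagln, another smooth muscle gene, had 0.59 ± 0.37. Itga11, an integrin chain that binds type I collagen, was the exception in this list, at 53.7 to 124 CPM against 7.21 to 37.1 CPM (2.26 ± 0.48). None of the 12 pericyte and smooth muscle genes was called by edgeR, with a median of 0.15. At an unadjusted p under 0.05, 2 were higher and 1 lower, and DESeq2 called Cspg4 lower.

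**Figure D2:**
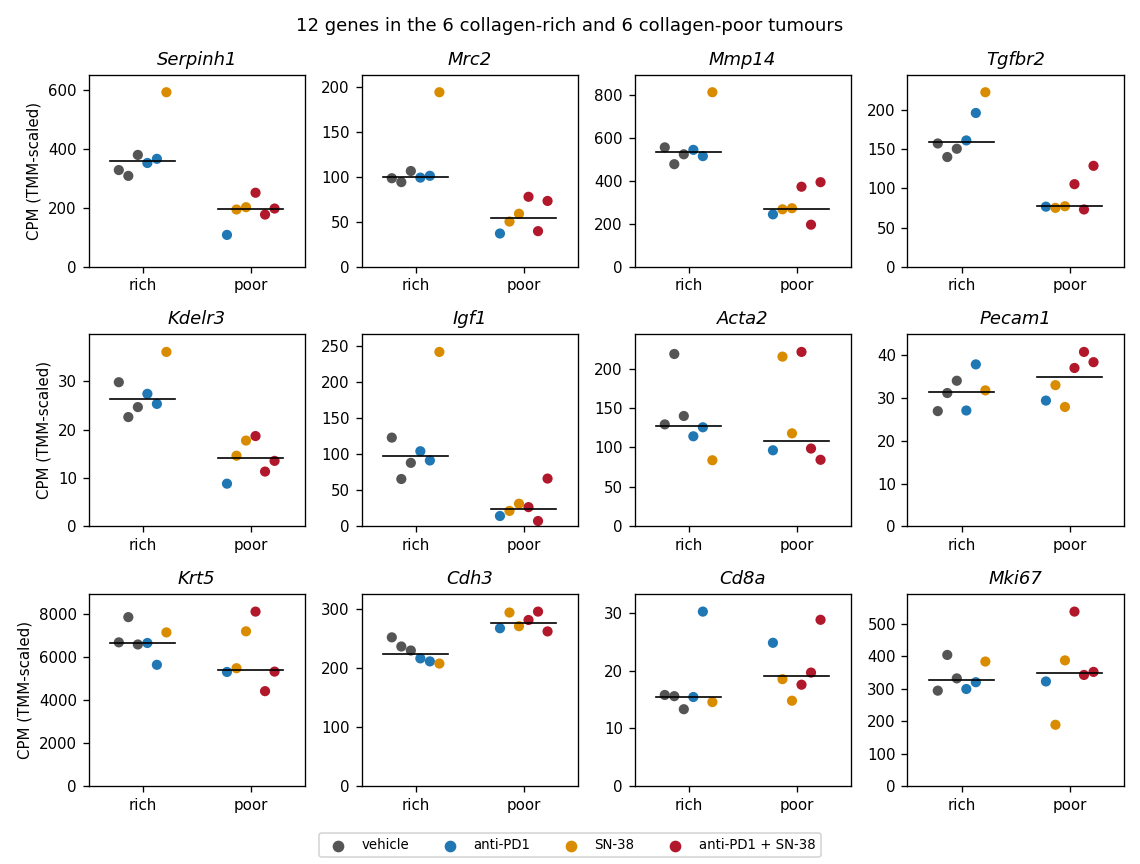
TMM-scaled CPM of 12 genes in the 6 collagen-rich and the 6 collagen-poor tumours, 1 point per tumour, coloured by treatment, with the median of each side as a line. Serpinh1, Mrc2, Mmp14, Tgfbr2 and Kdelr3 do not overlap between the sides and Cdh3 is lower in every rich tumour, whereas Acta2, Pecam1, Krt5, Cd8a and Mki67 overlap.

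Among the 16794 genes other than collagens, 684 (4.07%) were called, 586 (3.49%) as higher and 98 (0.584%) as lower on the collagen-rich side. The median log2 difference of the former was 1.47 and 430 of them exceeded 1, while the latter had a median of -0.72 and 34 lay beyond -1. Of the 586, 40 belonged to the matrix, fibroblast, contractile and collagen-modifying lists above. Without regard to treatment, 478 genes (2.85%) were higher in every rich than in every poor tumour and 120 (0.715%) lower. With no treatment term 516 (3.07%) were called higher and 168 (1%) lower. Many of these were other genes, above all among the lower ones: 355 of the 516 and 21 of the 168 were among the 586 and 98. With the treatment term and without SN-38 tumour 2, when only the 3 anti-PD1 tumours carried the difference, 1 gene was called higher and 0 lower, with 1459 at an unadjusted p under 0.05. The differences themselves stayed about as large, which the choice of genes in a fit that held the same 3 anti-PD1 tumours favours. All 586 and all 98 kept their direction, with medians of 1.36 and -0.73, while the median SE rose from 0.25 to 0.39 for the former and from 0.15 to 0.21 for the latter. Prss35, for example, had 2.96 ± 1.08 without that tumour and 2.96 ± 0.65 with it, Cpz 2.60 ± 0.79 and 2.82 ± 0.48, and Sema3g 3.19 ± 0.90 and 3.79 ± 0.55. The gene still called, named after its value was seen, was Serpinf1, which encodes the secreted collagen-binding protein PEDF (1.97, adjusted p = 0.045, and 1.80 with all 12 tumours). With neither the treatment term nor that tumour, 426 genes were called higher and 227 lower, and 581 of the 586 had the same direction. Of the 426 and 227, 296 and 15 were among the 586 and 98. Other single tumours moved the counts by more than 1.5 times as well. Without anti-PD1 tumour 1 they were 64 and 3, without SN-38 tumour 1 they were 170 and 17, and without SN-38 tumour 3 they were 300 and 62. Without vehicle tumours 1, 2 and 3 in turn they were 343 and 32, 436 and 37, and 312 and 29. Without anti-PD1 tumour 2 they were 449 and 58, without anti-PD1 tumour 3 they were 342 and 16, and without combination tumours 2 and 3 in turn they were 995 and 339, and 713 and 163.

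**Figure D3:**
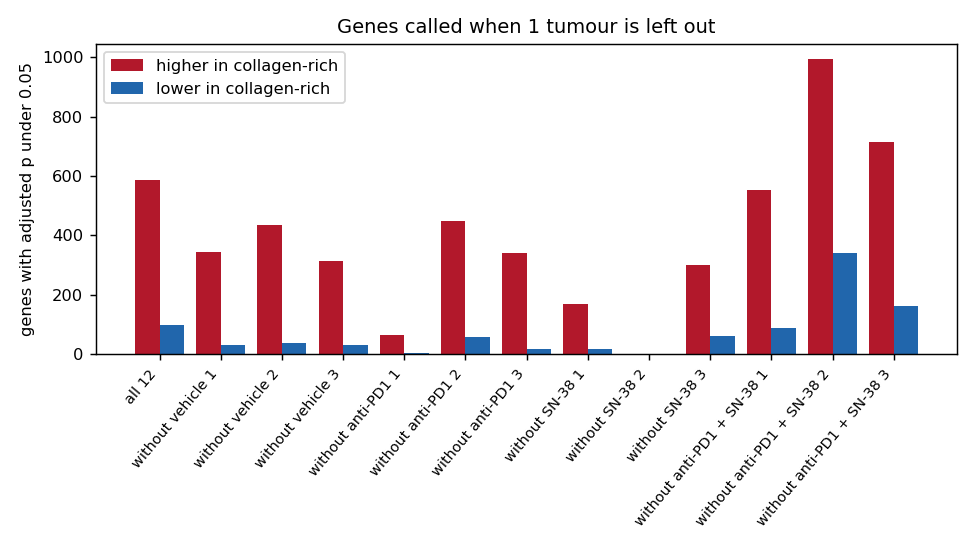
Number of genes other than collagens with an adjusted p under 0.05 (edgeR, treatment term in the fit) with all 12 tumours and with 1 tumour left out at a time, higher on the collagen-rich side in red and lower in blue. With all 12 tumours there are 586 and 98, without SN-38 tumour 2 there are 1 and 0, and without combination tumour 2 there are 995 and 339.

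Outside the matrix lists, the largest differences among genes whose sides did not overlap were in the following genes, several of them secreted. Sema3g, a secreted guidance factor, held 7.78 to 47.3 CPM in the rich tumours and 1.23 to 7.03 in the poor ones (3.79 ± 0.55, adjusted p = 0.00792). SN-38 tumour 2 gave the 47.3, and the next highest tumour held 12.5 CPM. Tnfaip6, a hyaluronan-binding protein that modifies matrix, held 3.73 to 13.5 CPM against 0.9755 to 2.13 CPM (2.93 ± 0.36, adjusted p = 0.00358). Prss35, a serine protease homologue, held 133 to 392 CPM against 7.49 to 73.7 CPM (2.96 ± 0.65, adjusted p = 0.0368). Cpz, a carboxypeptidase of the matrix, held 24.4 to 77.4 CPM against 4.21 to 22.04 CPM (2.82 ± 0.48, adjusted p = 0.0146). Igsf10 (2.81 ± 0.50), Tmem132c (2.84 ± 0.51), Slc6a17 (2.88 ± 0.56) and Plekhg4 (3.63 ± 0.86) completed the set, with adjusted p between 0.0171 and 0.0468.

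Collagen receptors were mixed. The integrin Itga11 has been given above. Where 3.49% and 0.584% of all genes were called higher and lower, 1 of the 11 other collagen receptors and uptake genes was higher and 0 lower. This was Mrc2, the endocytic receptor that takes up collagen fragments, with 98.3, 93.9 and 106 CPM in the vehicle tumours, 36.8, 98.9 and 101 in anti-PD1 tumours 1 to 3, 50.1, 194 and 58.8 in SN-38 tumours 1 to 3 and 77.6, 39.4 and 73.0 in the combination tumours. The rich tumours all lay above the poor ones (1.64 ± 0.22, adjusted p = 0.00662), by 1.44 within the antibody group and 1.84 within the SN-38 group. Ddr2, a tyrosine kinase receptor for fibrillar collagen, had 0.71 ± 0.21 (adjusted p = 0.111). Itga1 had 0.26 ± 0.18 (adjusted p = 0.52), and the epithelial receptor Ddr1 had -0.25 ± 0.20 (adjusted p = 0.584).

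In the TGF-β pathway 3 genes were called, all among those for latency, receptors and Smads. Of 9 ligands none was called by edgeR, 1 was higher and 1 lower at an unadjusted p under 0.05, and DESeq2 called Tgfb1 higher. Tgfb1 had 0.52 ± 0.17 (adjusted p = 0.129) and Tgfb3 0.15 ± 0.22 (adjusted p = 0.79). Of 19 genes for latency, receptors and Smads, 3 were called higher and 0 lower, where 3.49% and 0.584% of all genes were. At an unadjusted p under 0.05, 4 were higher and 2 lower, and DESeq2 called 3 higher and Acvr1b lower. Of the 19, 10 had positive and 9 negative log2 differences, with a median of 0.03. Sides that did not overlap were found for 1 as higher and for 2 as lower on the rich side. Tgfbr2, the ligand-binding receptor, held 158, 140 and 151 CPM with vehicle, 76.6, 161 and 196 in anti-PD1 tumours 1 to 3, 75.1, 223 and 77.2 in SN-38 tumours 1 to 3, and 105, 73.1 and 129 with the combination. The sides did not overlap (1.39 ± 0.19, adjusted p = 0.00604). Lrrc32, a docking protein for latent TGF-β, had 0.65 ± 0.14 (adjusted p = 0.0304), and the co-receptor Eng had 0.43 ± 0.10 (adjusted p = 0.0487), though both overlapped between the sides. None of 12 TGF-β targets outside the matrix lists was called by edgeR, with 1 higher and 4 lower at an unadjusted p under 0.05, and DESeq2 called Pmepa1 higher and Ccn2 lower. Of the 12, 9 had negative log2 differences, with a median of -0.34. Ccn2, a classical target that also responds to Hippo signalling, held 278 to 440 CPM in the rich and 290 to 911 CPM in the poor tumours (-1.15 ± 0.37, adjusted p = 0.129).

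To show the region from which 2 of these transcripts start, the 150 bases before the RefSeq start of Serpinh1 and of Tgfbr2 are given (assembly GRCm38.p6), 5′ to 3′ on the gene's strand. The motif CCAAT, or ATTGG on the other strand, is in capitals. Col1a1 is not among the promoters used here.
Serpinh1, chr7:99353240-99353389, minus strand: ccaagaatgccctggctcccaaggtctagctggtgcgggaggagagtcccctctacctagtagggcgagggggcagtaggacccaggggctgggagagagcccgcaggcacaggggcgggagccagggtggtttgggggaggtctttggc
Tgfbr2, chr9:116175364-116175513, minus strand: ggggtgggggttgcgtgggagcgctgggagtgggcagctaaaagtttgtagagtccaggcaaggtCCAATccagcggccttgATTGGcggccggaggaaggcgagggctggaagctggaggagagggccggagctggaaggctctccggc
Tgfbr2 held the motif starting at positions -85 and -68 from its start, and Serpinh1 held none in these letters. Of genes tested with a promoter in the table, 3613 of 11624 (31.1%) held the motif on either strand in a window of the same length, against 122 of 436 (28.0%) genes called higher and 20 of 74 (27.0%) called lower. Over all 32851 promoters of the table the share was 24.5%. The motif was thus no more common among the genes called than among all genes tested.

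Growth factors and their receptors in stroma gave 6 genes called higher and 1 lower of 27, where 3.49% and 0.584% of all genes were. The median was 0.28. Igf1, insulin-like growth factor 1, held 123, 65.8 and 88.2 CPM in the vehicle tumours, 14.3, 104 and 91.5 in anti-PD1 tumours 1 to 3, 21.4, 242 and 31.4 in SN-38 tumours 1 to 3, and 26.6, 7.35 and 66.4 in the combination tumours (2.995 ± 0.633, adjusted p = 0.0317). Combination tumour 3 just reached above vehicle tumour 2, so the sides overlapped. Igfbp6, a binding protein of insulin-like growth factors, held 4.60 to 6.12 CPM against 1.27 to 3.05 CPM (1.73 ± 0.31, adjusted p = 0.0171). Higher as well were Pdgfd (1.25), the Wnt antagonist homologue Dkk3 (1.35), Fgf2 (0.98) and the receptor Fgfr1 (0.65 ± 0.10, adjusted p = 0.0109). Sfrp1, a secreted inhibitor of Wnt signalling, was lower on the rich side within treatments (-1.07 ± 0.13, adjusted p = 0.00343). Its 12.02 to 19.1 CPM in the rich tumours met 17.5 to 34.0 CPM in the poor ones. The chemokine Cxcl12 had 0.28 ± 0.28 (adjusted p = 0.681).

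Of 22 matrix proteases and inhibitors, 11 were called higher and 0 lower by edgeR, where 3.49% and 0.584% of all genes were (15 and 1 at an unadjusted p under 0.05, 12 and 0 by DESeq2). The 11 were 9 proteases and 2 inhibitors and had sides that did not overlap. Over the list, 16 members had positive and 6 had negative log2 differences, and the median was 0.93. Mmp14, the membrane-type collagenase, held 556, 478 and 524 CPM with vehicle, 244, 544 and 515 in anti-PD1 tumours 1 to 3, 267, 813 and 272 in SN-38 tumours 1 to 3, and 372, 195 and 394 with the combination (1.36 ± 0.23, adjusted p = 0.0147). Mmp2, the gelatinase that MMP14 activates, had 1.33 ± 0.28 (adjusted p = 0.0299). Ctsk, the collagen-degrading cathepsin K, held 216 to 303 CPM against 34.4 to 116 CPM (1.75 ± 0.38, adjusted p = 0.0348). Mmp19 (1.42 ± 0.17), Mmp11 (1.84 ± 0.44) and Mmp23 (2.03 ± 0.29) were higher as well, as were the aggrecanases Adamts4 (1.58 ± 0.32) and Adamts5 (1.59 ± 0.22). So were the inhibitors Timp1, at 28.7 to 35.5 CPM against 13.7 to 23.2 CPM (0.94 ± 0.14, adjusted p = 0.00843), and Timp2 (0.92 ± 0.19). Plat, the tissue plasminogen activator, had 1.27 ± 0.24. Other members did not pass: Mmp9, a gelatinase of leucocytes, had -1.02 ± 0.46 (adjusted p = 0.291), Mmp3 had -1.003 ± 0.379 (adjusted p = 0.204) and Mmp13 had 0.15 ± 0.46 (adjusted p = 0.909).

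Of 8 transcription factors and cadherins of mesenchymal transition outside the fibroblast list, 3 were called higher and 0 lower, where 3.49% and 0.584% of all genes were. They were Cdh2, the mesenchymal N-cadherin (4.46 to 7.38 CPM against 0.832 to 2.71 CPM, 2.13 ± 0.37, adjusted p = 0.0139), Snai1 (1.03 ± 0.24, adjusted p = 0.0411) and Zeb2 (0.72 ± 0.15, adjusted p = 0.0303). The fibroblast factors Prrx1 (0.84 ± 0.19), Twist1 (0.99 ± 0.14) and Twist2 (1.21 ± 0.17), described with no p-value, lay in the same range. Vim, which is expressed by all mesenchymal cells and by many tumour lines, had 0.28 ± 0.18 (adjusted p = 0.463).

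In the secretory pathway, 4 of 25 transport genes were called higher and 0 lower, where 3.49% and 0.584% of all genes were. The median was 0.13. Sec24d, a coat protein of the vesicles that leave the endoplasmic reticulum, held 53.0 to 84.6 CPM against 36.4 to 55.4 CPM (0.76 ± 0.08, adjusted p = 0.00204). Kdelr3, a receptor that returns chaperones to the endoplasmic reticulum, held 29.8, 22.6 and 24.7 CPM with vehicle, 8.82, 27.4 and 25.3 in anti-PD1 tumours 1 to 3, 14.6, 36.1 and 17.7 in SN-38 tumours 1 to 3 and 18.7, 11.3 and 13.5 with the combination (1.36 ± 0.20, adjusted p = 0.00808). The paralogue Kdelr2 had 0.45 ± 0.08 (adjusted p = 0.0194) and Kdelr1 0.06 ± 0.08 (adjusted p = 0.781). Tmed3, a cargo receptor, had 0.39 ± 0.08 (adjusted p = 0.0319). None of 20 endoplasmic reticulum stress genes was called by edgeR or DESeq2, with 1 higher and 1 lower at an unadjusted p under 0.05 and a median of 0.00. Hspa5, the main chaperone induced by unfolded protein, lay at 0.00 ± 0.13.

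**Figure D4:**
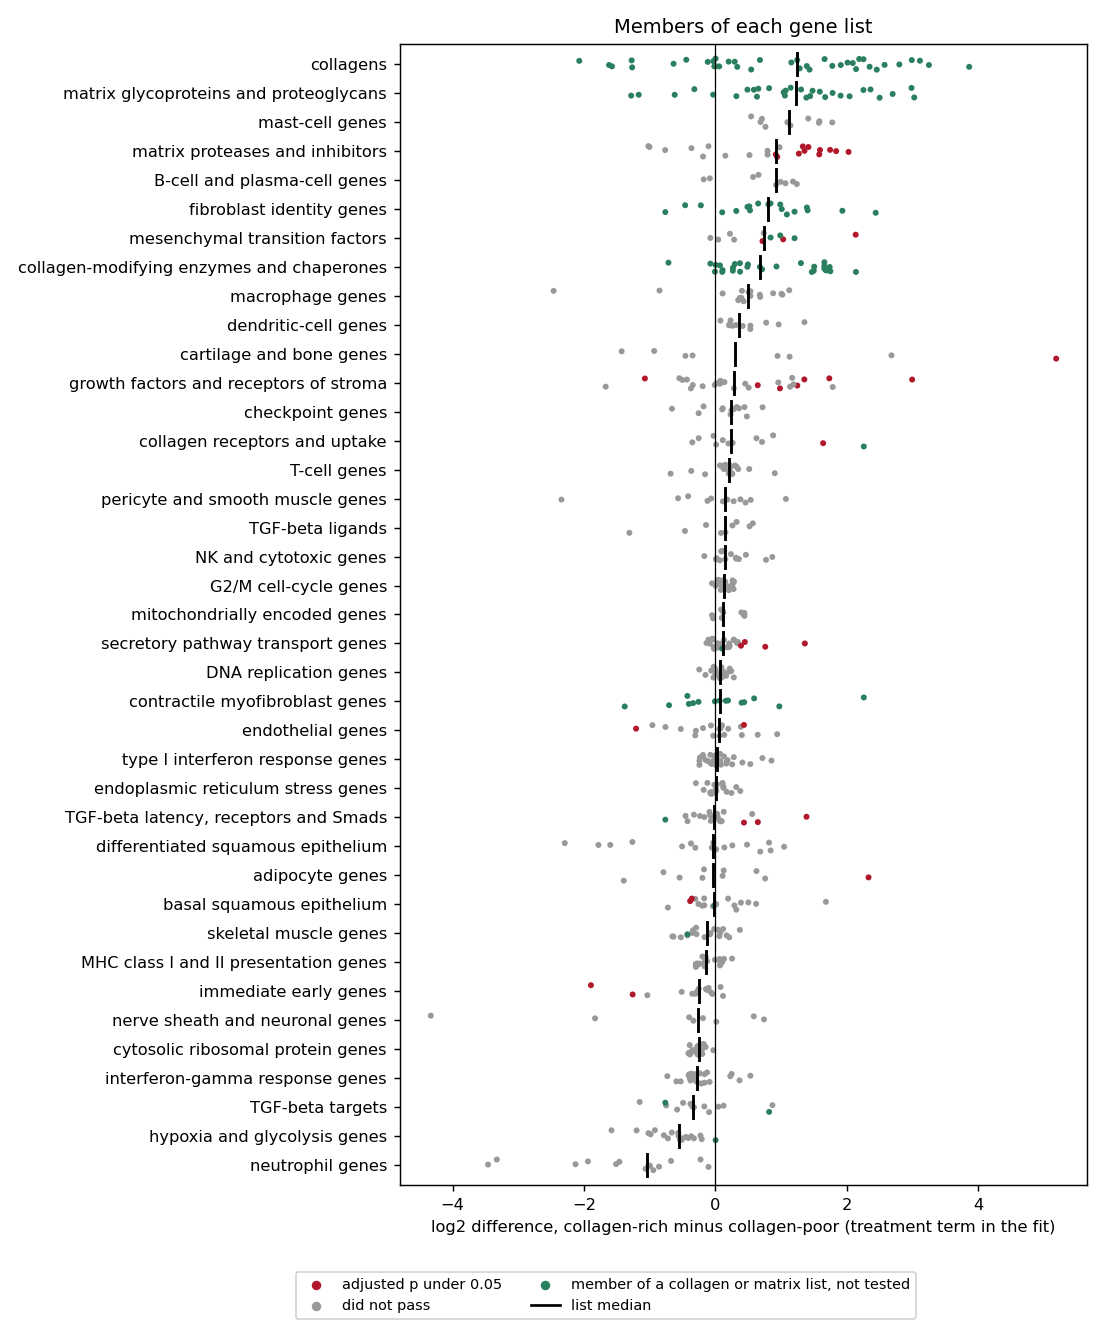
Log2 difference between collagen-rich and collagen-poor tumours for each tested member of the gene lists with at least 5 genes tested, with the list median as a black line. Members of collagen, matrix and fibroblast lists are green. They entered the fit but are given no p-value in the text, and the figure labels them as not tested. Of the remaining members, those with an adjusted p under 0.05 are red and the others grey. The list medians run from -1.04 for neutrophil genes to 1.25 for collagens.

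Lists for other tissues that a piece of subcutaneous tumour can hold gave few calls. Of all genes, 3.49% were called higher and 0.584% lower. Of 8 cartilage and bone genes 1 was called higher. This was Ibsp, bone sialoprotein (5.19 ± 1.24, adjusted p = 0.0485), at 2.43 to 10.6 CPM in the rich tumours and listed at 0 in anti-PD1 tumour 1, 0.0462 to 0.642 CPM in 4 others and 2.54 CPM in combination tumour 3. Alpl, alkaline phosphatase, had 2.68 ± 1.04 (adjusted p = 0.219), and its sides did not overlap. Of the 8 genes, 4 had positive and 4 had negative log2 differences, and the 2 summaries of the list went opposite ways. The mean log2 CPM was higher in every rich tumour (3.24 to 3.65) than in every poor one (2.23 to 3.09), while the summed level lay lower on the rich side with a small overlap, at 297 to 359 CPM against 355 to 518 CPM. Sox9, the most abundant member, had -0.93 ± 0.27 (adjusted p = 0.0903). Of 10 adipocyte genes 1 was higher, Lpl, lipoprotein lipase, which macrophages and fibroblasts also express (2.33 ± 0.37, adjusted p = 0.0109), while the defining fat hormone Adipoq averaged 0.404 CPM on the rich and 0.243 CPM on the poor side. None of 19 skeletal muscle genes and none of 8 nerve genes was called by edgeR or DESeq2, and in each list 1 was lower at an unadjusted p under 0.05. Muscle transcripts summed to 180 to 587 CPM in the rich tumours and 38.7 to 352 CPM in the poor ones. Of 20 endothelial genes, 1 was called higher and 1 lower. The former was Eng, and the latter was Lyve1, a hyaluronan receptor of lymphatic vessels (-1.21 ± 0.19, adjusted p = 0.00949), although over all 12 tumours its 3.14 to 7.59 CPM on the rich side covered most of the 4.21 to 10.6 CPM on the poor side. Pecam1, present on all endothelium, held 27.0 to 37.9 CPM against 27.9 to 40.8 CPM (0.10 ± 0.14, adjusted p = 0.788). The part of these tissues in the results was not tested.

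Of 17 basal squamous genes 0 were called higher and 2 lower, where 3.49% and 0.584% of all genes were. Of 17 differentiation genes edgeR called none, with 1 higher and 3 lower at an unadjusted p under 0.05, while DESeq2 called Krt6b and Tgm1 lower. The log2 differences ran from -0.72 to 1.68 for basal and from -2.29 to 1.05 for differentiation genes. Tgm1, the transglutaminase of the cornified envelope, averaged 16.9 CPM on the rich and 36.7 CPM on the poor side (-1.78 ± 0.53, adjusted p = 0.105), though its sides overlapped. Krt6b, a keratin at 0.717 and 1.76 CPM on average, had -2.29 ± 0.63 (adjusted p = 0.0791), and Krt10, a keratin of differentiating cells that averaged 0.574 and 2.26 CPM, had -1.6 ± 1.603 (adjusted p = 0.688). At the other end was Krt15, a basal keratin, with 1.68 ± 0.51 (adjusted p = 0.111). Cdh3, the P-cadherin of basal cells, held 252, 236 and 230 CPM with vehicle, 267, 216 and 211 in anti-PD1 tumours 1 to 3, 294, 208 and 271 in SN-38 tumours 1 to 3 and 281, 296 and 262 with the combination. It was lower in every rich tumour than in every poor one, by a small amount (-0.38 ± 0.08, adjusted p = 0.0353). Sox2, a factor of squamous stem cells, had -0.36 ± 0.07 (adjusted p = 0.0294). Epcam had -0.72 ± 0.18 (adjusted p = 0.0592) and Cdh1 -0.17 ± 0.12 (adjusted p = 0.51). Krt5 (0.19 ± 0.23, adjusted p = 0.743), Krt14 (0.39 ± 0.34, adjusted p = 0.629) and Trp63, the master factor of squamous cells (-0.04 ± 0.11, adjusted p = 0.916), did not pass.

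The 9 genes that were called lower, had sides that did not overlap and were abundant enough to be named are Cdh3 and 8 others. Plppr4, a membrane protein related to lipid phosphatases, held 0.805 to 1.55 CPM in the rich tumours and 1.61 to 21.7 CPM in the poor ones (-3.73 ± 0.64, adjusted p = 0.0145), with the high values in anti-PD1 tumour 1 (13.9) and SN-38 tumour 3 (21.7). Trpv6, an epithelial calcium channel, held 0.950 to 4.68 CPM against 7.12 to 22.8 CPM (-2.75 ± 0.56, adjusted p = 0.0279). Slc12a2, a sodium, potassium and chloride cotransporter, held 95.9 to 107 CPM against 115 to 177 CPM (-0.65 ± 0.14, adjusted p = 0.0327). The receptor Adgrg2 had -0.71 ± 0.16, the galectin Lgals4 -0.77 ± 0.17, the noncoding RNA Zfas1 -0.63 ± 0.11, Ttc39b -0.41 ± 0.09 and the chromatin remodeller Chd1 -0.31 ± 0.07, with adjusted p between 0.0143 and 0.0381. Of 15 immediate early genes 0 were called higher and 2 lower, where 3.49% and 0.584% of all genes were. Over the list, 13 members had negative and 2 had positive log2 differences, with a median of -0.25. The genes called were Fosb and Fos (-1.89 ± 0.39, adjusted p = 0.0268, and -1.26 ± 0.27, adjusted p = 0.0311). Their sides overlapped, with Fosb at 16.8 CPM in anti-PD1 tumour 1 and 1.498 to 4.35 CPM elsewhere, and Fos lowest in SN-38 tumour 2 at 4.09 CPM.

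No immune list had a gene called by edgeR. This held for 21 T-cell genes (median 0.21), 15 NK and cytotoxic genes (0.15), 13 checkpoint genes (0.24), 9 B-cell and plasma-cell genes (0.92), 17 macrophage genes (0.50), 12 dendritic-cell genes (0.36), 14 neutrophil genes (-1.04) and 10 mast-cell genes (1.12). At an unadjusted p under 0.05, 4 mast-cell, 3 macrophage, 1 B-cell and 1 dendritic-cell gene were higher, 1 macrophage and 1 neutrophil gene were lower, and no T-cell, NK or checkpoint gene was either. DESeq2 called 1 mast-cell gene higher (Mrgprb1) and 1 macrophage gene lower (Arg1). Cd8a, the coreceptor of cytotoxic T cells, held 13.3 to 30.2 CPM in the rich tumours and 14.8 to 28.8 CPM in the poor ones (-0.16 ± 0.26, adjusted p = 0.829). The values of 30.2 and 28.8 belonged to anti-PD1 tumour 3 and combination tumour 3, which each had the most Col1a1 of their group. Without both of these tumours, 432 genes were called higher and 34 lower. Within treatments, positive log2 differences were found for 18 of 21 T-cell, 14 of 15 NK and cytotoxic and 10 of 13 checkpoint genes. The same held for 7 of 9 B-cell and plasma-cell, 15 of 17 macrophage, 12 of 12 dendritic-cell and 10 of 10 mast-cell genes. Of all genes, 47.6% were positive. Without regard to treatment, the mean log2 CPM of each of these lists overlapped between the sides. It averaged 2.8 in the rich and 2.95 in the poor tumours for T-cell genes, and 1.66 and 1.75 for NK and cytotoxic genes. It was 3.23 and 3.5 for checkpoint genes and 4.24 and 4.37 for macrophage genes. It was higher on the rich side for B-cell (1.45 against 1.39) and mast-cell genes (4.68 against 4.05), and about equal for dendritic-cell genes. Among mast-cell genes, Cpa3, a mast-cell protease, held 33.9 to 93.2 CPM against 14.6 to 74.3 CPM (1.58 ± 0.56, adjusted p = 0.172). All 14 neutrophil genes had negative log2 differences, and S100a8 held 0.146 to 1.26 CPM against 0.803 to 23.1 CPM (-3.46 ± 1.76, adjusted p = 0.361). SN-38 tumour 1 and combination tumour 2 held 23.1 and 16.8 CPM of it, and the other 4 poor tumours at most 2.47 CPM. Without these 2 tumours 774 genes were called higher and 223 lower. What the leucocytes contributed to the differences between the sides was not tested.

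Neither edgeR nor DESeq2 called a gene among 25 interferon-γ response genes (median -0.28), 30 type I interferon response genes (0.03) and 19 genes of antigen presentation (-0.15). At an unadjusted p under 0.05, 1 was lower in the first list, 1 higher in the second and 0 in the last. Isg15 had 0.17 ± 0.22 (adjusted p = 0.762) and Cd274, which encodes the ligand of PD1, -0.66 ± 0.47 (adjusted p = 0.533). Cell-cycle genes showed small differences, with medians of 0.13 over 24 G2/M genes and 0.08 over 26 replication genes. None was called by edgeR or DESeq2 or had an unadjusted p under 0.05. Mki67 held 294 to 405 CPM in the rich tumours and 189 to 538 CPM in the poor ones (0.18 ± 0.28, adjusted p = 0.812). Of the 19 hypoxia and glycolysis genes outside the matrix lists, none was called by edgeR, although all 19 had negative log2 differences, with a median of -0.56. At an unadjusted p under 0.05, 4 were lower, and DESeq2 called Eno1 and Kdm3a lower. Car9, a carbonic anhydrase induced by low oxygen, held 34.2 to 80.0 CPM against 27.6 to 141 CPM (-1.20 ± 0.61, adjusted p = 0.356). The 26 ribosomal protein genes were likewise all negative by small amounts (median -0.26). None was called by edgeR, 6 had an unadjusted p under 0.05 and DESeq2 called 3 lower.

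The vehicle and combination tumours, which did not set the log2 differences between the sides, give a second view. Their contrast, vehicle minus combination, is at once one of side and one of treatment, and the tumours enter the same fit through the spread. Of the 586 genes called higher on the rich side, 549 were also higher in vehicle than in combination tumours on average, where 49.9% of all genes tested were. Of the 98 called lower, 59 were lower in vehicle tumours, where 49.9% of all genes were. The differences were smaller there. Serpinh1 differed by 0.71 log2 units between vehicle and combination tumours, Mrc2 by 0.71, Mmp14 by 0.76, Tgfbr2 by 0.58 and Col1a1 itself by 1.22. Within treatments, all 586 and all 98 had the same direction in SN-38 and in anti-PD1 tumours, which the choice of genes by their mean over both groups favours.

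**Figure D5:**
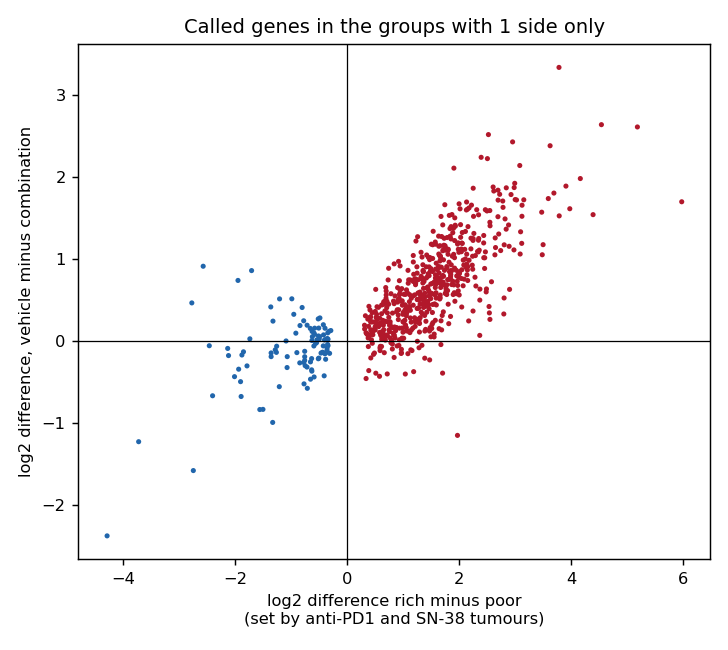
Each of the 684 genes called between the sides, with its log2 difference within treatments (horizontal, set by the anti-PD1 and SN-38 tumours) against its log2 difference between vehicle and combination tumours (vertical). Of the genes called higher on the collagen-rich side (red), 549 of 586 lie above 0 on the vertical axis, and of those called lower (blue), 59 of 98 lie below it.

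Over all genes tested other than collagens, the first principal component of log2 CPM took 36.4% of the variance. The rich tumours lay between -35.0 and -15.2 on it and the poor ones between -13.2 and 74.5. Combination tumour 3, the first tumour below the division by Col1a1, was also the poor tumour nearest to the rich side on this component, and combination tumour 2 was the farthest.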

How the data were processed

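The authors deposited whole-number counts per gene, not normalized, for 54446 genes in 12 tumours. The submitters' processing notes name cutadapt 2.4, STAR 2.7.2a and the build GRCm38. How reads were counted, on which strand and against which annotation is not given in the sources used here, so overlapping, antisense and near-identical genes are uncertain. Symbols came from GENCODE, release M21 (54409 identifiers matched). The 6 tumours of each side came from the share of Col1a1 in the total count. Genes were filtered with edgeR's filterByExpr by treatment, scaled by TMM and fitted with edgeR 4.0.16 (R 4.3.3, robust quasi-likelihood, treatment group and side, no block on tumour number). SE is the log2 difference divided by the root of F. No 2 tumours of a group agreed within counting noise (lowest chi-square per degree of freedom 11.8).

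The sides, the 40 gene lists and the panel of 46 genes were chosen with earlier results of these data known. Named were the 10 largest log2 differences per direction among genes called, not overlapping between sides and averaging at least 1 on the log2 CPM scale, the panel, 2 members of each list (smallest p in the direction of its median) and the 3 most abundant members of the matrix lists. Other list members given were picked for their role after values were known. Counts over lists leave out genes that also stand in a collagen, matrix, fibroblast or contractile list.

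On simulated counts for 16833 genes, of which 16636 were fitted, the test recovered 17.9% of 67 genes changed 1.5-fold, 52.2% of 67 changed 2-fold and 89.4% of 66 changed 4-fold. It called 7 of 16633 unchanged genes, including those left out of the fit, and DESeq2 called 46. Genes were simulated independently on sides fixed beforehand, so these counts do not cover genes that vary together with Col1a1. Alternatives were DESeq2 1.42.0, limma 3.58.1 (voom), other scalings and filters, other divisions of the tumours, and leaving out each tumour.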

Additional observations from a re-analysis of the deposited data

Results flagged for a closer look

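In 44 of 284 sets of 6 values examined, the highest or lowest tumour of a side stood off from the other 5 by more than Dixon's 95% limit (gap over range above 0.625). Collagens and the collagen-modifying, matrix, fibroblast and contractile genes were not examined in this way, because the sides were divided on Col1a1. For groups drawn at random chance gives about 1 in 20 such sets. That share does not hold for genes that follow Col1a1, since each side is one end of its ranking, and the sets share tumours, so for SN-38 tumour 2, which had the most Col1a1, the values are a description. It was the highest collagen-rich tumour for Mmp14 (813 CPM on TMM-scaled libraries), Prss35 (392), Igsf10 (216), Mrc2 (194), Sec24d (84.6), Cpz (77.4), Sema3g (47.3), Adamts5 (28.4), Mmp19 (21.7), Plekhg4 (17.6) and Slc6a17 (8.95). It was also highest in the mean log2 CPM of the secretory transport genes (6.56) and lowest in that of the immediate early genes (4.27).

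Anti-PD1 tumour 3 stood highest among collagen-rich tumours in leucocyte genes: Cd4 (62.1 CPM), Vsir (55.9), Adgre1 (48.0), Gzmb (42.9), Cd8a (30.2), Pdcd1 (16.6), Gzma (14.4), Zap70 (14.0), Ncr1 (6.47) and Clec9a (5.68), and in mt-Co3 (1.33). Its mean log2 CPM was highest for T-cell genes (3.86), NK and cytotoxic genes (2.83), checkpoint genes (4.44) and dendritic-cell genes (3.99). Combination tumour 3 stood highest among collagen-poor tumours in Cd4 (83.9 CPM), Cpa3 (74.3), Zap70 (15.7), Mrgprb1 (8.26), Clec9a (7.85), Cd22 (7.27), Ncr1 (6.99), Ibsp (2.54) and the dendritic-cell genes (4.27 mean log2 CPM), and lowest in Kdm3a (123). The remaining values are Krt10 at 11.8 CPM in SN-38 tumour 3, Mb at 42.6 and Fosb at 16.8 CPM in anti-PD1 tumour 1, and Sox2 at 64.8 CPM, Tgm1 at 32.6 CPM and nerve genes at a mean log2 CPM of 1.37 in vehicle tumour 2, each the highest of its side.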

How the results depend on the processing

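The genes called higher and lower (586 and 98) numbered 933 and 335 with DESeq2, 1171 and 672 with log2 Col1a1 as a continuous term, 956 and 590 for the 4 highest against the 4 lowest tumours with no treatment term, and 516 and 168 with all 12 tumours and no treatment term. In the same order, 578, 546, 464 and 355 of the 586 were called again. Of the 98, 97, 90, 53 and 21 were. Leaving out 1 tumour gave 1 to 995 and 0 to 339. Chosen after seeing the data were the fits without the treatment term and SN-38 tumour 2 (426 and 227), without that term and anti-PD1 tumour 1 (281 and 62), without both high-neutrophil tumours (774 and 223), without both high T-cell tumours (432 and 34) and with the SN-38 and anti-PD1 tumours only (674 and 118). The share of calls that were higher fell from 85.7% to 73.6% with DESeq2, 75.4% with no treatment term, 63.5% with the continuous term and 61.8% for 4 against 4. The labels do not say whether tumours with the same number had more than that in common. Of 18 same-number pairs, 4 correlated above 0.1 (r between -0.471 and 0.631), where different-number pairs ran from -0.65 to 0.494. With a replicate block 496 and 116 genes were called, of which 407 and 48 were shared with the fit without it. Common handling by number was not tested. All 32 named genes called kept their direction in each alternative, which their choice in a fit to the same tumours favours. Without SN-38 tumour 2, 0 of them remained called, while the median size of their log2 differences went from 1.39 to 1.31 and the median SE from 0.23 to 0.32. The Col1a1 difference by SN-38 ran from -5237 to 192 CPM when 1 tumour was left out.

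Genes that changed sign had none called with all 12 tumours. With no treatment term, then also without SN-38 tumour 2, then instead without anti-PD1 tumour 1, the log2 differences were -0.15, -0.21 and -0.15 for Itga1, -0.10, -0.11 and -0.14 for Cxcl12, -0.13, -0.12 and -0.17 for Pecam1, 0.49, 0.66 and 0.58 for Ckm, 0.75, 1.02 and 1.24 for Adipoq, -0.068, -0.098 and -0.093 for Mki67, -0.25, -0.34 and -0.28 for Mnt, 0.14, 0.23 and 0.36 for Mb, 0.22, 0.37 and 0.42 for Ryr1, -0.23, -0.29 and -0.36 for Siglec1 and -0.24, -0.12 and -0.39 for Clec9a. The fits with neither the treatment term nor SN-38 tumour 2, and neither that term nor anti-PD1 tumour 1, gave 0.028 and 0.0043 for Tpm1, 0.031 and 0.056 for Pnpla2 and 0.061 and 0.059 for Plin4. With neither the treatment term nor anti-PD1 tumour 1, the values were -0.034 for Cd4, -0.0071 for Vsir, 0.040 for Tgtp1, 0.085 for Tgtp2 and -0.025 for mt-Co3. For 4 against 4 tumours the values were -0.019 for Tgfb3, 1.01 for Ckm, 0.14 for Adipoq, 0.020 for Pdcd1, -0.20 for Mnt, 0.61 for Ryr1 and -0.0023 for Siglec1. The continuous term gave -0.019 for Tgfb3, 0.12 for Ckm, 0.062 for Pdcd1 and 0.058 for Ryr1, and the replicate block gave -0.18, 0.47, 0.012 and 0.40 for the same genes and 0.0062 for Trp63. Without both high T-cell tumours, Pecam1 had -0.014, Adipoq 0.28, Gzmb -0.17 and Isg15 -0.030, and without both high-neutrophil tumours Mki67 had -0.040. Leaving out 1 tumour gave -0.083 to 0.64 for Cxcl12, -0.16 to 0.090 for Trp63, -3.76 to 1.08 for Krt10, -6.21e-05 to 0.20 for Pecam1, -1.05 to 0.47 for Ckm, -6.07 to 0.24 for Adipoq, -0.39 to 0.027 for Cd8a, -0.53 to 0.083 for Pdcd1, -0.16 to 0.70 for Gzmb, -0.0579 to 0.41 for Mki67, -0.015 to 0.33 for Isg15 and -0.049 to 0.98 for mt-Co3. The cause was not tested for any of these.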
